A study of Mus musculus with 7 samples.

Results

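The genes described here encode the Golgi glycosyltransferases that start, extend, branch, fucosylate and sialylate mucin-type O-glycans and related glycans, in Paneth cells (PCs), which sit at the bottom of the intestinal crypts and release antimicrobial granules. They were chosen by name: every protein-coding gene of the count table whose symbol is Galnt, Gcnt, B3gnt, B3galt, B4galt, Fut, St3gal, St6gal, St6galnac or St8sia followed by a number. This gave 70 of the 55414 gene identifiers of the table, for 69 symbols, since St6galnac2 has 2 overlapping identifiers. PCs were purified with a cell sorter from the small intestine of C57BL/6J mice 15 h after the mice had received TNF (tumour necrosis factor) or, as the control, PBS (phosphate-buffered saline) by injection, and RNA from 3 PBS and 4 TNF mice, 1 mouse per library, was sequenced. The sources used here do not give the dose, the route of injection, the age and sex of the mice or the antibodies used for sorting. The comparison of TNF with PBS addresses how TNF changes the PC transcriptome.

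Mucin-type O-glycosylation begins when a GalNAc-transferase (Galnt) joins N-acetylgalactosamine (GalNAc) to a serine or threonine. Core enzymes then add galactose or N-acetylglucosamine (GlcNAc), the Gcnt enzymes add branches, the B3gnt, B3galt and B4galt enzymes lengthen the chains, and fucosyltransferases (Fut) and sialyltransferases (St3gal, St6gal, St6galnac, St8sia) cap them. In the intestine the capped chains clothe secreted and membrane mucins, carry blood group and Lewis antigens, and are bound by microbes and lectins. The name rule also takes in enzymes that mainly serve other glycans, such as Fut8, which adds the core fucose of N-glycans, B4galt7 and B3galt6, which build the linker of proteoglycans, and B4galt5, B4galt6, B3gnt5, B3galt4 and St3gal5, which act on glycolipids.

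The libraries held 15511455 to 19193721 counts. Levels are given as counts scaled to a TMM-adjusted library size of 1000000 (CPM), and a gene was called when its edgeR adjusted p was under 0.05. Of the Paneth cell marker list, 2 of 11 tested genes were higher and 3 were lower after TNF, and its summed level ran from 186400 to 306986 CPM in the PBS libraries and from 174944 to 319428 CPM in the TNF libraries. In lists of other epithelial cells the genes called lower, against 30.1% of all genes tested, were 5 of 10 goblet cell markers (11533 to 20959 CPM after PBS, 9533 to 11045 CPM after TNF), 10 of 10 tuft cell markers (1693 to 2808 CPM, then 351 to 883 CPM), 7 of 8 tested enterocyte markers (725 to 901 CPM, then 255 to 327 CPM), 6 of 7 stem cell markers (3474 to 4794 CPM, then 1971 to 2717 CPM) and 3 of 7 tested enteroendocrine markers (45.8 to 117 CPM, then 19.4 to 32.2 CPM). The largest fall among the goblet cell markers was that of Fcgbp, from a mean of 2892 to 58.9 CPM (-5.62 ± 0.36). Of the goblet cell markers that were not lower, Spdef was higher (1.44 ± 0.20) and 4 were not called. Among these 4 were Muc2 and Spink4, which had the highest levels of the list. Of the 7 enteroendocrine markers 4 were not called. Leukocyte markers summed to 24.2 to 31.9 CPM after PBS and 18.8 to 28.6 CPM after TNF, with Cd3e at 0 counts, but single ones moved. S100a9, a calprotectin subunit of neutrophils, had 0 counts in every PBS library and 5.76, 6.84, 3.21 and 7.85 CPM after TNF (adjusted p = 1.14e-06). S100a8, the other subunit, had 32 counts in the TNF libraries, 0 in the PBS libraries and no test, and Ptprc, the pan-leukocyte CD45 gene, was lower (-0.95 ± 0.33, adjusted p = 0.027). Endothelial and stromal markers summed to at most 0.448 CPM with Col1a2 at 0, and erythroid markers to at most 0.236 CPM with Hbb-bs and Hba-a1 at 0. These marker levels moved with the treatment, so they stand beside every result that follows, and their part in the results was not tested. In sorted bulk RNA, fewer cells of a type and less RNA per cell cannot be told apart.

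Of the 70 genes, 12 had no count in any library, which over 123464461 counts allows a level of up to 0.0243 CPM. A further 12 were counted but too low to be tested, and 46 were tested. After TNF, 17 of the 46 were higher, 16 were lower and 13 were not called, so 71.7% were called, against 59.6% of the 14329 genes tested over the whole table (29.5% higher and 30.1% lower). In 35 of the 46 (76.1%) the CPM of the 3 PBS and the 4 TNF libraries did not overlap, against 60.7% of all tested genes. The median log2 fold change of the 46 was 0.10, beside 0.0017 over all tested genes. The counts of single families, here and below, stand against these shares of all tested genes, and most rest on a few genes. By family, the Galnt genes split into 7 lower and 2 higher, and the B3galt (1 and 1), Fut (2 and 2) and St3gal (2 and 2) genes were called equally often in both directions. Called genes were all higher in the Gcnt (2 of 4 tested), B3gnt (3 of 6), B4galt (4 of 7) and St8sia (1 of 1) families. They were all lower in the St6gal (1 of 1) and St6galnac (3 of 4) families. The 2 overlapping identifiers of St6galnac2 count as 2 of these 3 and as 2 of the 16 lower genes. No difference between families was tested. A call together with a change of at least 2-fold was seen in 21 of the 46, 11 higher and 10 lower. Over all tested genes the same was seen in 31.6% (14.4% higher and 17.2% lower). B3gnt2 (1.69 on the log2 scale) also changed by more than 2-fold but was not called.

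**Figure D1:**
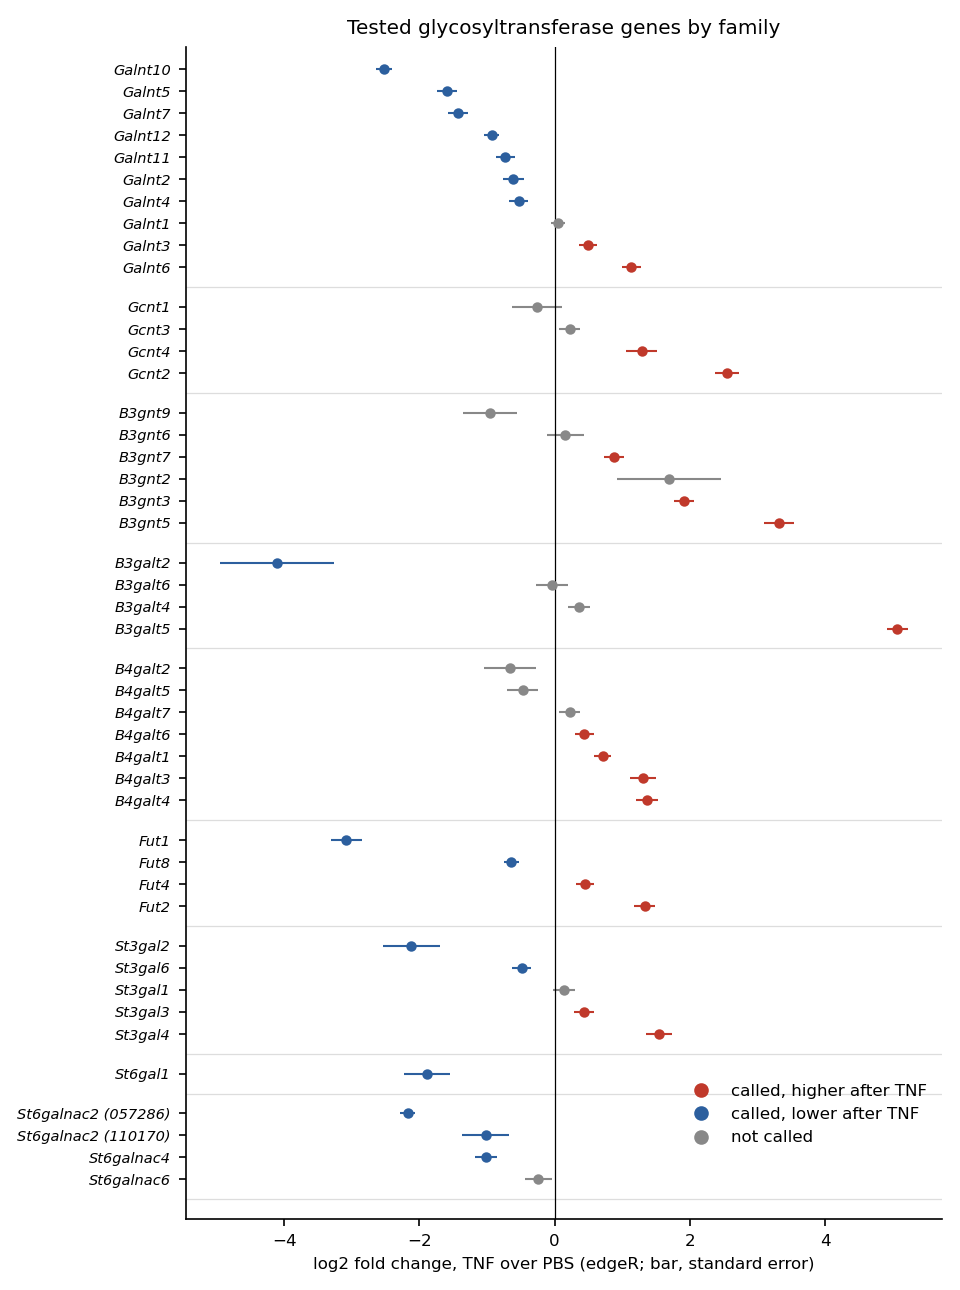
Log2 fold change (TNF over PBS, horizontal axis) with its standard error for 45 of the 46 tested glycosyltransferase genes, grouped by family from the Galnt to the St6galnac family; red genes were called higher, blue genes lower and grey genes were not called. B3galt5 lies farthest to the right at 5.07 and B3galt2 farthest to the left at -4.11, and St8sia6, with 0 counts in every PBS library, is left off.

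Promoter sequences are shown for 7 genes of 6 families that changed after TNF, some of them higher and some lower. RefSeq (mouse build GRCm38.p6) gave 70 promoter windows for 50 of the 69 symbols, each from 250 bases before to 50 bases after an annotated gene start, and Fut2 and St6galnac2 were among those without a window. Letter patterns of factors active in TNF and cytokine signalling were searched on both strands: TTCNNNGAA (STAT), GGG and TTTCC set 2 bases apart (NF-kB), GAAA and GAAA set 2 bases apart (interferon-stimulated response element) and TGANTCA (AP-1). The last pattern, TATAAA, was that of the core promoter element that TATA-binding protein recognises. Capitals mark every match in the windows printed here, from B3galt5 (chr16:96235551-96235850, plus strand), Gcnt2 (chr13:40886508-40886807, plus strand), Gcnt4 (chr13:96924094-96924393, plus strand) and B4galt1 (chr4:40853935-40854234, minus strand), which hold a STAT pattern, and from St8sia6 (chr2:13793471-13793770, minus strand), Fut1 (chr7:45617356-45617655, plus strand) and Galnt10 (chr11:57645192-57645491, plus strand), which hold none of the 5 patterns. The windows were picked, and every window with a STAT pattern is among them. They therefore do not show how the patterns are shared between genes that rose and genes that fell. St6gal1, which fell, holds an AP-1 pattern in a window not printed. No matches overlap in the printed windows. Each reads 5′ to 3′ on the strand of its gene.
B3galt5: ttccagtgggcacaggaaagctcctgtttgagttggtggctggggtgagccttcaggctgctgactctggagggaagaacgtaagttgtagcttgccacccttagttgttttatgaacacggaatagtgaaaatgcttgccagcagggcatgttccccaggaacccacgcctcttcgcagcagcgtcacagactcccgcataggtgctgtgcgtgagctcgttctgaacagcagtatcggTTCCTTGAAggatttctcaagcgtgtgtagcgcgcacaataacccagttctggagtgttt
Gcnt2: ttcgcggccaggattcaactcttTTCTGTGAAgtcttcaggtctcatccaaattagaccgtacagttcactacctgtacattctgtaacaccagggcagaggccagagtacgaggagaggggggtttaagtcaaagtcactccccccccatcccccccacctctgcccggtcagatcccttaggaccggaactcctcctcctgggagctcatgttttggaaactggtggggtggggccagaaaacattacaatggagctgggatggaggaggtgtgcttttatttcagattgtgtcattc
Gcnt4: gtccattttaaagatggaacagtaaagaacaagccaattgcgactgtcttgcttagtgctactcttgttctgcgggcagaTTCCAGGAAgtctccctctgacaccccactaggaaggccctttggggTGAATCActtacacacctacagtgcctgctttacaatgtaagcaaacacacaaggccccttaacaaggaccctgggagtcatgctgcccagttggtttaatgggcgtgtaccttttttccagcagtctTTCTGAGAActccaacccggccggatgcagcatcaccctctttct
B4galt1: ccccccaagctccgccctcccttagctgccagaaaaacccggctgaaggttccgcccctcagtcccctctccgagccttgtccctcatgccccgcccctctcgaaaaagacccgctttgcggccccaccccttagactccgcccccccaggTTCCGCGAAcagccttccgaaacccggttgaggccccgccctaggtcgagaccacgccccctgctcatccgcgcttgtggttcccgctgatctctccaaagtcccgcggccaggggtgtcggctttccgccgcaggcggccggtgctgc
St8sia6: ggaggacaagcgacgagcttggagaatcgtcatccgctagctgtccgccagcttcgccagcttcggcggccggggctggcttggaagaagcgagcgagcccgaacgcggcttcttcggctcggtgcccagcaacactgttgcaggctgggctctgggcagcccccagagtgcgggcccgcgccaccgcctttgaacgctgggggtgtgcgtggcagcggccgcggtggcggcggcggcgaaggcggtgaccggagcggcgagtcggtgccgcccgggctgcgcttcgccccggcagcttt
Fut1: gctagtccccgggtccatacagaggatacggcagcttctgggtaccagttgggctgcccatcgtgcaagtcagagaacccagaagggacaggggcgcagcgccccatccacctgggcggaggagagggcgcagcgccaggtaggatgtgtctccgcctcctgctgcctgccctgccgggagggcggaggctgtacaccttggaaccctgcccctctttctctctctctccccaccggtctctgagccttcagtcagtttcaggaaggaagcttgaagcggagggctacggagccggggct
Galnt10: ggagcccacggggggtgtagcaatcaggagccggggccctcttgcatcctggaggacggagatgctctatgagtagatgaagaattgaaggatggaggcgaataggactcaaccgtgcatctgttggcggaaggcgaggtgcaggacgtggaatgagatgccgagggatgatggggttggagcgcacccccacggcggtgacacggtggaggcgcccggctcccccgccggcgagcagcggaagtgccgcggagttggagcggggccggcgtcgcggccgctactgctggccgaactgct

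The STAT pattern lay in 4 of the 70 windows (5.71%), against 8.3% of 32851 promoter windows of the genome, so it was no more frequent than elsewhere. The 4 windows belonged to B3galt5, Gcnt2, Gcnt4 and B4galt1, and each of these genes was higher after TNF. It was in 4 of the 21 windows of higher genes and in 0 of the 17 windows of lower genes, against the same 8.3% of all windows. These are counts of windows and not of genes, and the split was not tested. In B3galt5 the match TTCCTTGAA began 10 bases before the start, and Gcnt4 had 2 matches in its window, TTCCAGGAA and TTCTGAGAA. B3galt5 and Gcnt2 each have 3 windows and Gcnt4 has 2, of which 1 held the pattern, and counts per gene do not show which start was used. The NF-kB pattern lay in 1 window, that of Fut4 (1.43%, against 1.63% of all windows). The interferon pattern was in none of the 70 (3.44% of all windows), and the AP-1 pattern was in 4 (5.71%, against 7.81%), among them Gcnt4 and St6gal1. The core promoter element was in 1 window, that of Gcnt1 (1.43%, against 13.6%). A match describes letters in a window and not a bound site.

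The Galnt enzymes start the O-glycan. Of 17 genes, Galnt9, Galnt14, Galnt15 and Galnt17 had 0 counts, and Galnt13 (13 counts after PBS and 0 after TNF in all), Galnt16 (0 and 6) and Galnt18 (0 and 22) were too low to be tested. Of the 10 tested, 7 were lower, 2 were higher and Galnt1 was not called (0.05 ± 0.11 on the log2 scale). Over all tested genes 30.1% were lower and 29.5% were higher. Galnt10, which prefers peptides that already carry GalNAc, stood at 280, 230 and 205 CPM after PBS and at 38.3, 45.4, 39.5 and 42.8 CPM after TNF. Every TNF library was far below every PBS library, 5.74-fold on the fitted scale (log2 fold change -2.52 ± 0.12 SE, adjusted p = 1.41e-09). Galnt7, another enzyme of pre-glycosylated peptides and the highest Galnt gene per kilobase of exon in PBS libraries, had 594, 475 and 391 CPM after PBS and 143, 189, 191 and 198 CPM after TNF. Its groups did not overlap, and the fall was 2.7-fold (-1.43 ± 0.15, adjusted p = 2.27e-06). Galnt5 went from 189, 137 and 131 CPM to 40.2, 57.2, 51.6 and 52.9 CPM, again without overlap and 3.02-fold lower (-1.59 ± 0.15, adjusted p = 8.13e-07). Smaller falls were called for Galnt12, Galnt11, Galnt2 and Galnt4, with log2 fold changes from -0.93 to -0.53. Galnt4 lay at 421, 350 and 271 CPM after PBS and at 206, 257, 240 and 258 CPM after TNF, with its lowest PBS library just above its highest TNF library (-0.53 ± 0.14, adjusted p = 0.00524). Of the 5089 exon bases of Galnt4, 5087 lie inside the exons of Poc1b on the same strand, so reads of the 2 genes can be confused, and Poc1b itself fell by 0.34 on the log2 scale.

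Against this, Galnt6 rose, and its close paralog Galnt3 rose less. Galnt6 had 245, 199 and 185 CPM after PBS and 372, 509, 455 and 503 CPM after TNF. The groups were well apart, and the rise was 2.2-fold (1.13 ± 0.14, adjusted p = 1.02e-05). Galnt3 had a mean of 135 ± 26.0 CPM over the 3 PBS libraries and of 189 ± 11.6 CPM over the 4 TNF libraries (SD), and its log2 fold change was 0.49 ± 0.13 (adjusted p = 0.00459). Put per kilobase of exon, the summed level of the tested Galnt genes was 347 ± 57.9 CPM per kb after PBS and 249 ± 24.0 CPM per kb after TNF. Within that sum the share of Galnt6 was 8.81%, 8.74% and 9.21% in the PBS libraries and 25.6%, 28.0%, 26.8% and 28.3% in the TNF libraries. The share of Galnt7 went the other way, from 22.9% to 25.0% down to 11.5% to 13.2%, and that of Galnt10 from 6.92% to 7.03% down to 1.6% to 1.81%. The leading GalNAc-transferase transcript was thus Galnt7 in each PBS library and Galnt6 in each TNF library. These shares depend on the annotated exon length and were not tested.

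**Figure D2:**
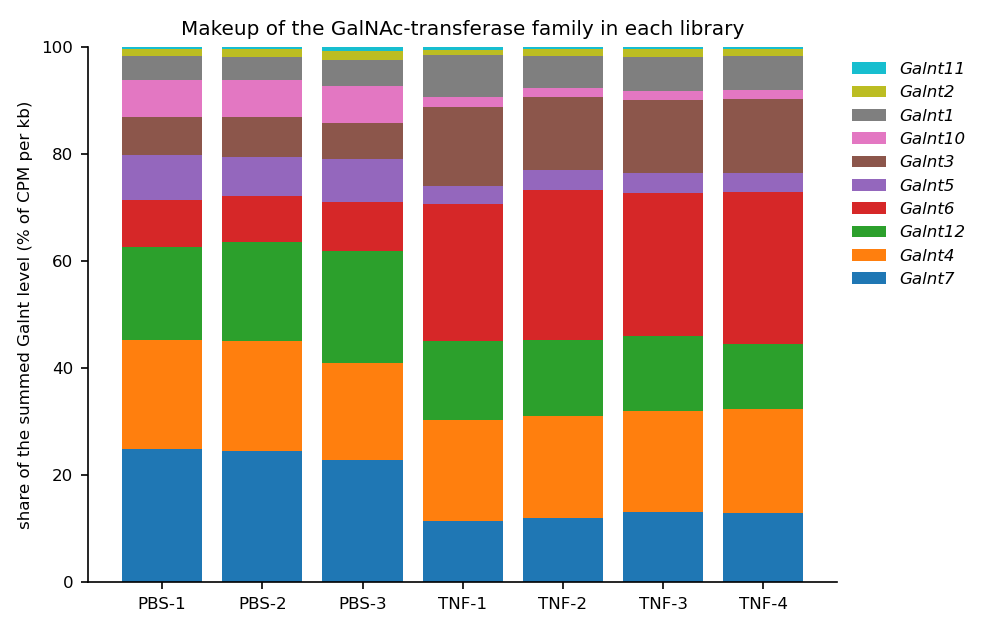
Share of each tested Galnt gene (colours) in the summed Galnt level, in percent of CPM per kilobase of exon (vertical axis), in each of the 3 PBS and 4 TNF libraries (bars). The Galnt6 band widens from 8.92% ± 0.254 to 27.2% ± 1.24 (mean and SD over libraries) while Galnt7 narrows from 24.1% ± 1.13 to 12.5% ± 0.768.

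The Gcnt enzymes add the GlcNAc branches. Gcnt3, the mucin-type enzyme that makes core 2 and core 4 branches, had the highest mean level per kilobase of all 46 tested genes in both groups, though Galnt7 was above it in PBS replicate 2, at 87.9 ± 20.7 CPM per kb after PBS and 103 ± 10.8 after TNF. In CPM it had 479, 344 and 311 after PBS and 501, 424, 391 and 450 after TNF. The groups overlapped, and the difference was not called (0.22 ± 0.15, adjusted p = 0.212), although it passed without PBS replicate 1 (0.43, adjusted p = 0.0114). Gcnt2, which makes the I-antigen branch of polylactosamine, had 4.7, 6.46 and 5.78 CPM after PBS and 38.4, 26.6, 36.5 and 30.9 CPM after TNF. All TNF libraries were several times above all PBS libraries, 5.84-fold on the fitted scale (2.55 ± 0.18, adjusted p = 4.1e-08). Gcnt4, a further core 2 enzyme, rose from 4.57, 9.47 and 7.32 CPM to 19.5, 13.8, 18.8 and 17.9 CPM with no overlap (1.29 ± 0.23, adjusted p = 0.000234). Gcnt1 was not called at -0.26 ± 0.37, and Gcnt7 had no counts. Gcnt3 kept 92.4% ± 1.29 of the family's level per kilobase after TNF, so the rises of Gcnt2 and Gcnt4 took place among minor transcripts.

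The B3gnt enzymes extend chains with GlcNAc. B3gnt3, which extends core 1 chains, was the leading gene of the family in both groups. It had 107, 83.5 and 70.2 CPM after PBS and 289, 351, 328 and 340 CPM after TNF. No TNF library came near a PBS library, and the rise was 3.76-fold (1.91 ± 0.15, adjusted p = 1e-07). Its exons share 20.5% of their bases with Jak3 on the opposite strand. Jak3 was itself higher, at a mean of 9.46 CPM after PBS and 15.8 CPM after TNF (0.75 ± 0.20, adjusted p = 0.00489). B3gnt5, the synthase that starts lacto-series glycolipids, had 7.73, 4.28 and 3.92 CPM after PBS and 45.3, 51.5, 51.5 and 62.2 CPM after TNF, without overlap (3.32 ± 0.22, adjusted p = 5.45e-08). B3gnt7, an extender of sulfated chains, rose by less, from a mean of 27.7 ± 7.24 to 50.9 ± 3.87 CPM (0.88 ± 0.15, adjusted p = 0.000232). The core 3 synthase B3gnt6 was not called (0.16 ± 0.27), with 6.49 to 9.82 CPM after PBS and 6.16 to 12.7 CPM after TNF. B3gnt2 and B3gnt9 were not called, at 1.69 ± 0.77 (adjusted p = 0.0739) and -0.96 ± 0.40 (adjusted p = 0.0547), though in both the groups did not overlap. Both were low, at mean levels of 0.827 and 1.79 CPM over the 7 libraries, and B3gnt2 was called without PBS replicate 1 (2.66, adjusted p = 0.0313) and had a smaller difference without PBS replicate 3 (1.09, adjusted p = 0.157). The exons of B3gnt2 share 35.2% of their bases with Commd1b on the same strand, which had no counts. B3gnt4 (0 counts after PBS and 2 after TNF) and B3gnt8 (28 and 7) were too low to be tested. The summed B3gnt level rose from 28.9 ± 5.86 to 90.1 ± 7.85 CPM per kb.

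The B3galt family held the widest spread of changes. B3galt5, which makes type 1 chains by adding β1,3-linked galactose to GlcNAc, had 8.59, 8.09 and 6.05 CPM after PBS and 258, 274, 236 and 247 CPM after TNF. The gene (ENSMUSG00000074892) lies on chromosome 16, positions 96036699 to 96121060 of GRCm39. The PBS libraries were uniformly low and the TNF libraries uniformly high, a 33.5-fold difference (5.07 ± 0.15, adjusted p = 3.35e-11), and the log2 fold change stayed between 4.92 and 5.17 over 14 alternative analyses. Among the tested genes B3galt5 moved from rank 40 to rank 10 by level per kilobase. It made up 8.57% ± 1.83 of the summed B3galt level after PBS and 72.3% ± 1.19 after TNF, while B3galt4, the ganglioside enzyme, made up 67.7% ± 3.87 and then 22.2% ± 1.8. B3galt4 itself was not called (0.36 ± 0.16, adjusted p = 0.061), and it shares 26.4% of its exon bases with Gm64720 on the opposite strand. B3galt2 stood at 0.804, 2.55 and 1.43 CPM after PBS and at 0.112, 0, 0.214 and 0 CPM after TNF. It was at or near 0 in all TNF libraries (-4.11 ± 0.84, adjusted p = 0.00076), at a depth where its TNF libraries held only 6 counts in all, and its log2 fold change was -5.12 without TNF replicate 3. B3galt6 was not called (-0.04 ± 0.23), and B3galt1 (0 counts after PBS and 1 after TNF) and B3galt9 (6 and 0) were too low to be tested.

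**Figure D3:**
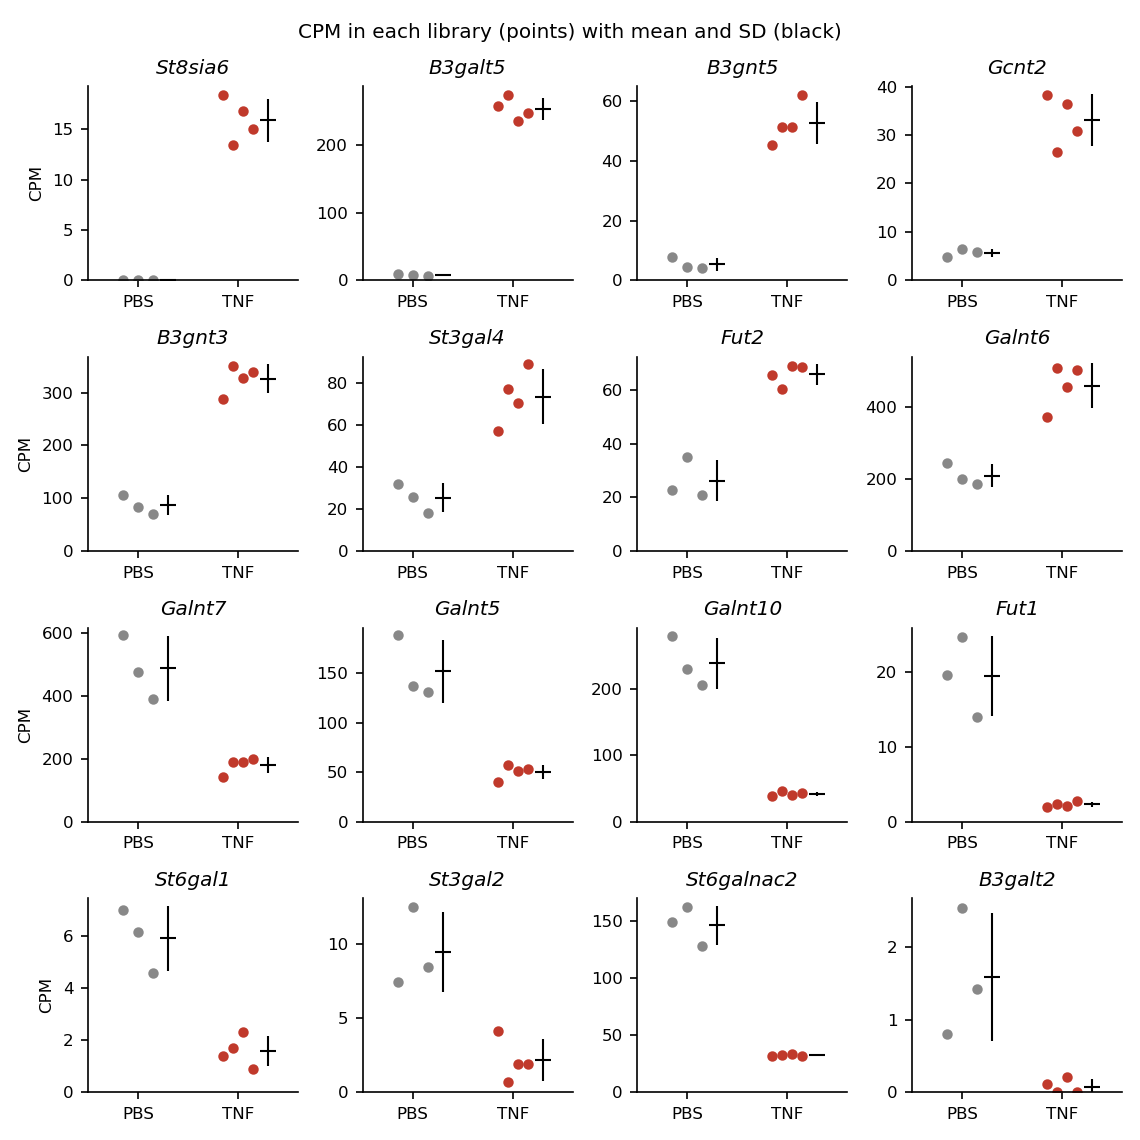
CPM (vertical axis, linear, from 0) of 16 glycosyltransferase genes in each PBS (grey) and TNF (red) library, with the mean and SD of each group in black. The upper 8 panels, from St8sia6 to Galnt6, show genes that were higher after TNF and the lower 8, from Galnt7 to B3galt2, genes that were lower, and in none of the 16 do the groups overlap.

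The B4galt enzymes add β1,4-linked galactose, most of them to GlcNAc or glucose and B4galt7 to xylose. All 7 genes were tested, 4 were higher and none was lower, against 29.5% higher and 30.1% lower of all tested genes. B4galt1, the leading gene of the family per kilobase in each TNF library, where B4galt5 led in 2 of the 3 PBS libraries, had 244, 189 and 181 CPM after PBS and 294, 352, 355 and 343 CPM after TNF, without overlap (0.71 ± 0.13, adjusted p = 0.000258). B4galt4 rose 2.58-fold, from 31.3, 32.7 and 24.2 CPM to 57.1, 87.4, 70.3 and 88.6 CPM (1.37 ± 0.16, adjusted p = 1.07e-05). B4galt3 rose 2.47-fold, from 18.3, 27.3 and 25.5 CPM to 69.6, 68.1, 56.0 and 41.3 CPM (1.31 ± 0.19, adjusted p = 6.67e-05). The groups of both genes were apart. B4galt3 shares 57.2% of its exon bases with Ppox on the opposite strand, and Ppox was not called (-0.52 ± 0.28). B4galt6 was called at 0.44 ± 0.14 (adjusted p = 0.0127) but lost the call in 3 alternatives. The paralog of B4galt6 among lactosylceramide synthases, B4galt5, was not called (-0.47 ± 0.23, adjusted p = 0.101), with 74.2, 107 and 70.3 CPM after PBS and 81.1, 51.6, 67.9 and 41.7 CPM after TNF, and it was called with DESeq2 (-0.48, adjusted p = 0.0421). B4galt2 (-0.66 ± 0.39), which shares 20.8% of its exon bases with Ccdc24 on the same strand, and B4galt7 (0.22 ± 0.16) were not called.

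Among the fucosyltransferases all 4 tested genes were called, in opposite directions, where 59.6% of all tested genes were called. Fut7 and Fut9 had no counts. Fut1 and Fut2 both make the H antigen by adding α1,2-linked fucose to galactose, Fut2 being the secretor enzyme of epithelia. The 2 genes lie 27.5 kb apart on chromosome 7, Fut1 (ENSMUSG00000008461) at 45266553 to 45270559 on the plus strand and Fut2 (ENSMUSG00000055978) at 45298015 to 45315818 on the minus strand of GRCm39. Fut1 had 19.6, 24.7 and 14.0 CPM after PBS and 1.96, 2.36, 2.09 and 2.81 CPM after TNF, a fall of 8.45-fold (-3.08 ± 0.23, adjusted p = 8.79e-08). Fut2 had 22.9, 35.0 and 20.8 CPM after PBS and 65.8, 60.4, 69.1 and 68.5 CPM after TNF, a rise of 2.51-fold (1.33 ± 0.16, adjusted p = 9.78e-06). In neither gene did the groups overlap, so the neighbours that share a reaction moved apart. Of the summed Fut level per kilobase, Fut1 made up 7.9% ± 2.03 after PBS and 0.854% ± 0.107 after TNF, and Fut2 5.91% ± 1.8 and 13.5% ± 1.79.

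Fut4, an α1,3-fucosyltransferase of Lewis x chains, led the family per kilobase of exon in both groups. In CPM it was below Fut8 in each PBS library. It had 205, 162 and 159 CPM after PBS and 197, 274, 239 and 248 CPM after TNF, and TNF replicate 1 lay below PBS replicate 1. The call (0.45 ± 0.13, adjusted p = 0.00925) was lost without PBS replicate 2 (0.40, adjusted p = 0.0502). Fut8 fell from 244 ± 30.2 to 157 ± 10.9 CPM (-0.64 ± 0.11, adjusted p = 0.000191), with no overlap. The genes once named Fut10 and Fut11 carry the symbols Pofut3 and Pofut4 in the annotation and so were not matched. Pofut4 was not called (0.24 ± 0.19, adjusted p = 0.295) and Pofut3 was too low to be tested.

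The St3gal enzymes cap galactose with α2,3-linked sialic acid. St3gal1, which caps core 1 O-glycans, had the highest mean level per kilobase of the sialyltransferase genes in both groups (29.3 ± 8.39 and 32.2 ± 3.14 CPM per kb). After PBS its SD overlapped with that of St6galnac2 (24.8 ± 2.91), which was above it in PBS replicate 2. It had 266, 158 and 179 CPM after PBS and 193, 234, 242 and 216 CPM after TNF, which overlapped and were not called (0.14 ± 0.16, adjusted p = 0.482), and without PBS replicate 1 the difference was called (0.40, adjusted p = 0.0161). St3gal4, which acts on type 2 chains and takes part in sialyl Lewis x synthesis, had 32.0, 25.8 and 18.2 CPM after PBS and 57.4, 77.2, 70.7 and 89.1 CPM after TNF, a rise of 2.91-fold without overlap (1.54 ± 0.19, adjusted p = 1.88e-05). Its exons share 24.2% of their bases with 4930581F22Rik, which was itself higher at 8.21 CPM after TNF. St3gal2, with a core 1 and glycolipid acceptor preference, fell from 7.42, 12.5 and 8.48 CPM to 4.14, 0.707, 1.93 and 1.9 CPM. The TNF libraries varied among themselves but all were under the PBS libraries (-2.12 ± 0.42, adjusted p = 0.000817). St3gal3 was called higher (0.43 ± 0.15, adjusted p = 0.0208) with overlapping groups and lost the call in 6 of 14 alternatives. St3gal6 was called lower (-0.49 ± 0.14, adjusted p = 0.00836) and lost it in 1, without PBS replicate 2. It shares 44.1% of its exon bases with Dcbld2 on the opposite strand, which was not called (0.28 ± 0.28). The GM3 synthase St3gal5 was too low to be tested, with 47 counts after PBS and 5 after TNF in all.

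The α2,6-sialyltransferases were lower or not called. St6gal1, the enzyme of α2,6-sialylated N-glycans, was low in both groups, with 6.98, 6.16 and 4.56 CPM after PBS and 1.4, 1.71, 2.3 and 0.916 CPM after TNF, a fall of 3.69-fold without overlap (-1.89 ± 0.34, adjusted p = 0.000299). St6gal2 was too low to be tested, with 8 counts after PBS and 1 after TNF. The St6galnac enzymes add α2,6-linked sialic acid to the GalNAc of O-glycans or of glycolipids. The main identifier of St6galnac2 (ENSMUSG00000057286, chromosome 11, 116566129 to 116585713 of GRCm39) had 149, 162 and 128 CPM after PBS and 32.0, 32.8, 33.9 and 31.8 CPM after TNF. The 4 TNF libraries were close to each other and 4.49-fold under the PBS libraries (-2.17 ± 0.11, adjusted p = 1.55e-09). The second identifier (ENSMUSG00000110170), which shares 68.9% of its exon bases with the first, had 3.46, 4.17 and 5.09 CPM after PBS and 2.8, 1.95, 2.41 and 1.18 CPM after TNF (-1.02 ± 0.35, adjusted p = 0.0211). Its call was lost with the replicate as a block and without PBS replicate 2 or 3, and reads of the pair cannot be cleanly split. St6galnac4 had 31.2, 27.2 and 31.7 CPM after PBS and 11, 18.6, 14.5 and 15.2 CPM after TNF, with no overlap (-1.02 ± 0.16, adjusted p = 9.99e-05). St6galnac6, which lies 10 bases from St6galnac4 on the same strand, was not called (-0.24 ± 0.20). St6galnac1, the sialyl-Tn synthase, St6galnac3 and St6galnac5 had no counts. The summed St6galnac level fell from 33.8 ± 3.13 to 11.1 ± 0.822 CPM per kb.

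St8sia6 adds α2,8-linked sialic acid to a chain that already ends in sialic acid, mainly on O-glycans. The gene (ENSMUSG00000003418, chromosome 2, 13655832 to 13798896 of GRCm39) had 0 counts in each of the 3 PBS libraries and 328, 228, 314 and 229 counts in the TNF libraries, or 18.4, 13.4, 16.8 and 15.0 CPM. It was counted in each of the 4 TNF mice and in none of the PBS mice, and 0 counts over the PBS libraries allow at most 0.0549 CPM. Against that floor of 3 counts over the group the level was at least 291-fold higher after TNF, and at least 187-fold to 306-fold with any 1 library left out. The gene was tested only because of its counts in the TNF libraries, so its call is no separate support for the rise. The edgeR adjusted p of 5.82e-09 belongs to the fitted change and not to this bound. The intervals and floors cover counting error only. Per kilobase it reached 2.07 ± 0.279 CPM after TNF, rank 36 of the 46, so a large relative change ended at a modest level. Of the other polysialyl and disialyl enzymes, St8sia2 and St8sia4 had no counts, and St8sia1 (0 counts after PBS and 11 after TNF in all), St8sia3 (6 and 0) and St8sia5 (0 and 1) were too low to be tested.

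**Figure D4:**
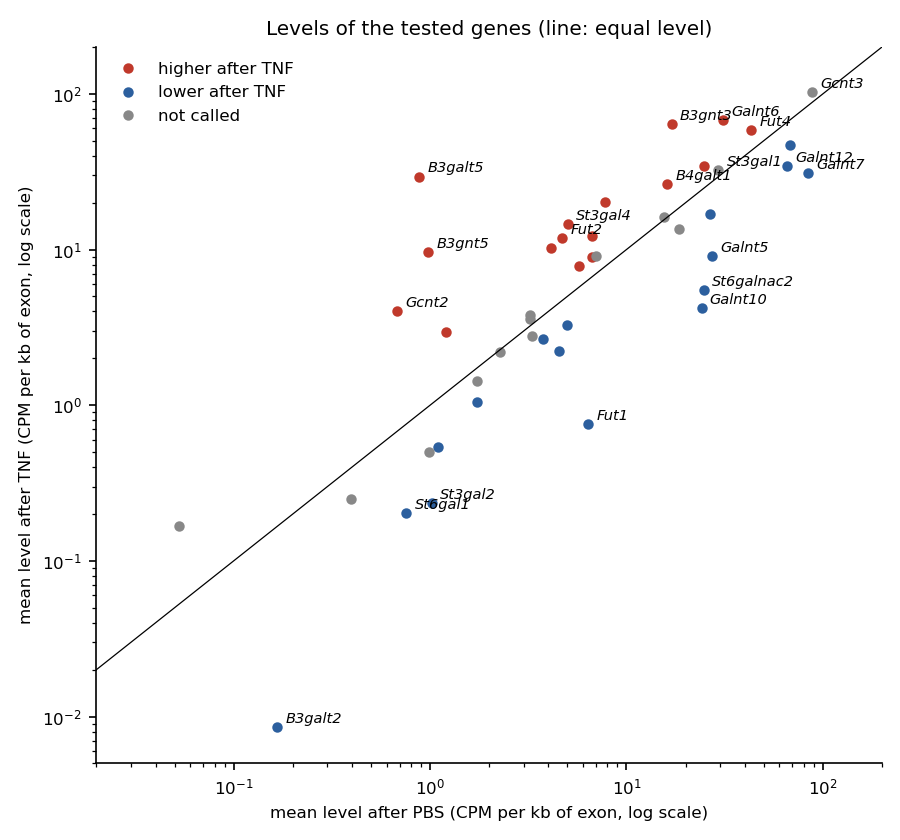
Mean level after TNF (vertical axis) against mean level after PBS (horizontal axis) for the tested genes, in CPM per kilobase of exon on log scales, with the line of equal level; St8sia6, at 0 after PBS, is not drawn. B3gnt3 rises from 17.0 to 63.9, near Galnt6 at 67.8, while Galnt10 (24.1 to 4.2) and Fut1 (6.37 to 0.755) lie well below the line.

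By mean level per kilobase, the order changed below the first place. After PBS the highest genes were Gcnt3, Galnt7, Galnt4, Galnt12 and Fut4, and after TNF they were Gcnt3, Galnt6, B3gnt3, Fut4 and Galnt4. After PBS the SDs of the first 4 overlapped (87.9 ± 20.7, 84.1 ± 17.6, 68.2 ± 14.7 and 65.3 ± 5.54 CPM per kb), and the order of Gcnt3 and Galnt7 differed between PBS libraries, while Galnt7 was above Galnt4 and Galnt12 in each. After TNF the SDs of Galnt6, B3gnt3 and Fut4 overlapped (67.8 ± 9.35, 63.9 ± 5.3 and 58.8 ± 7.85), and that of Fut4 also overlapped with that of Galnt4 (47.2 ± 4.82). B3gnt3 moved from rank 14 to 3, and B3gnt5 from 39 to 20. St6galnac2 moved from rank 10 to 25, Galnt10 from 12 to 26 and Fut1 from 21 to 39.

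The enzymes depend on sugar donors and protein acceptors, so 75 genes in 9 lists of donor synthesis, transport, further glycan enzymes and mucins were read beside them. Of the 58 tested, 20 were higher, 24 were lower and 14 were not called (75.9% called), against 59.6% of all tested genes called, 29.5% higher and 30.1% lower. The counts of the single lists below, most of a few genes, stand against the same background. In the sialic acid donor list, Nans, the sialic acid phosphate synthase, rose from 128, 107 and 85.9 CPM to 222, 280, 269 and 283 CPM (1.30 ± 0.14, adjusted p = 3.16e-06). Cmas, which activates sialic acid to its CMP donor, rose from 139, 106 and 100 CPM to 273, 366, 333 and 331 CPM (1.5 ± 0.14, adjusted p = 7.42e-07). Gne, the first enzyme of the pathway, fell from 268, 205 and 194 CPM to 109, 110, 103 and 106 CPM (-1.06 ± 0.12, adjusted p = 3.67e-06). The steps of this pathway therefore did not move together, and the Golgi transporter Slc35a1 was not called (-0.13 ± 0.12), at 53.5, 49.6 and 42.6 CPM after PBS and 40.4, 43.1, 44.8 and 49.5 CPM after TNF. Nanp was too low to be tested, with 13 counts after PBS and 4 after TNF. Of 5 tested sialidases and sialic acid O-acetylation genes, the lysosomal sialidase Neu1 was higher and the other 4 were lower, the largest fall being that of Neu2, from 4.94, 6.72 and 5.36 CPM to 0, 0.53, 0.161 and 0.851 CPM (-3.90 ± 0.63, adjusted p = 0.000151).

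In the fucose donor list 3 of 6 genes were higher, 1 was lower and 2 were not called. Slc35c1, the Golgi transporter of GDP-fucose, rose from 136, 116 and 85.9 CPM to 201, 232, 227 and 222 CPM (0.97 ± 0.14, adjusted p = 4.15e-05). Gmds, the first enzyme from GDP-mannose, rose from 235, 168 and 147 CPM to 259, 324, 280 and 342 CPM (0.72 ± 0.16, adjusted p = 0.00144). Of the salvage pair, Fpgt was higher, at 19.5, 20.4 and 19.4 CPM after PBS and 27.4, 25.9, 26.8 and 27.2 CPM after TNF (0.44 ± 0.11). The other of the pair, the fucokinase Fcsk, was lower, at 38.3, 37.4 and 40.6 CPM and then 25.6, 23.3, 25.6 and 21 CPM (-0.70 ± 0.12). The groups did not overlap in any of these 4 genes. Gfus, at 139, 120 and 114 CPM and then 108, 143, 114 and 122 CPM (-0.03 ± 0.12), was not called. Slc35c2, at 61.4, 51.6 and 49.8 CPM and then 40.5, 55.5, 39.1 and 45 CPM (-0.27 ± 0.13), was not called either. The 15 genes for galactose, GalNAc and GlcNAc donors split evenly, 5 higher, 5 lower and 5 not called. Gfpt2, an isoform of the entry enzyme of the hexosamine pathway, rose from 0.185, 0.204 and 0 CPM to 2.52, 2.12, 4.44 and 2.49 CPM (4.42 ± 0.70, adjusted p = 8.85e-05), while its paralog Gfpt1 was not called (0.23 ± 0.17).

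C1galt1, the core 1 synthase that adds the first galactose to GalNAc, rose from 339, 265 and 259 CPM to 625, 623, 598 and 706 CPM, with the groups far apart (1.15 ± 0.13, adjusted p = 3.85e-06). Its dedicated chaperone C1galt1c1 was not called (-0.00 ± 0.17), at 174, 122 and 105 CPM after PBS and 110, 142, 123 and 159 CPM after TNF. Among 8 tested genes of other terminal enzymes outside the name rule, a list that also holds the CMP-sialic acid hydroxylase gene Cmah, 6 were lower and none was higher. Cmah, which modifies the donor and is no glycosyltransferase, was 1 of the 6 (-2.70 ± 0.41). A4gnt, which caps O-glycans with α1,4-linked GlcNAc, fell from 125, 91.5 and 76.7 CPM to 11.9, 6.25, 5.73 and 4.65 CPM (-3.77 ± 0.30, adjusted p = 5.5e-06). Of 4 tested sulfotransferases 1 was higher and 3 were lower, and of 8 N-glycan branching genes 4 were higher and 4 were lower. Of 6 tested mucin genes 3 were higher and 3 were not called. Muc1, a membrane mucin, rose from 0.618, 0.204 and 0.212 CPM to 9.01, 10.1, 7.5 and 13.7 CPM (4.89 ± 0.41, adjusted p = 2.3e-07), and the membrane mucins Muc17 and Muc4 were also higher (3.03 ± 0.41 and 2.30 ± 0.16). The secreted mucin Muc2 (0.13 ± 0.22) and the membrane mucin Muc13 (0.13 ± 0.16) were not called.

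**Figure D5:**
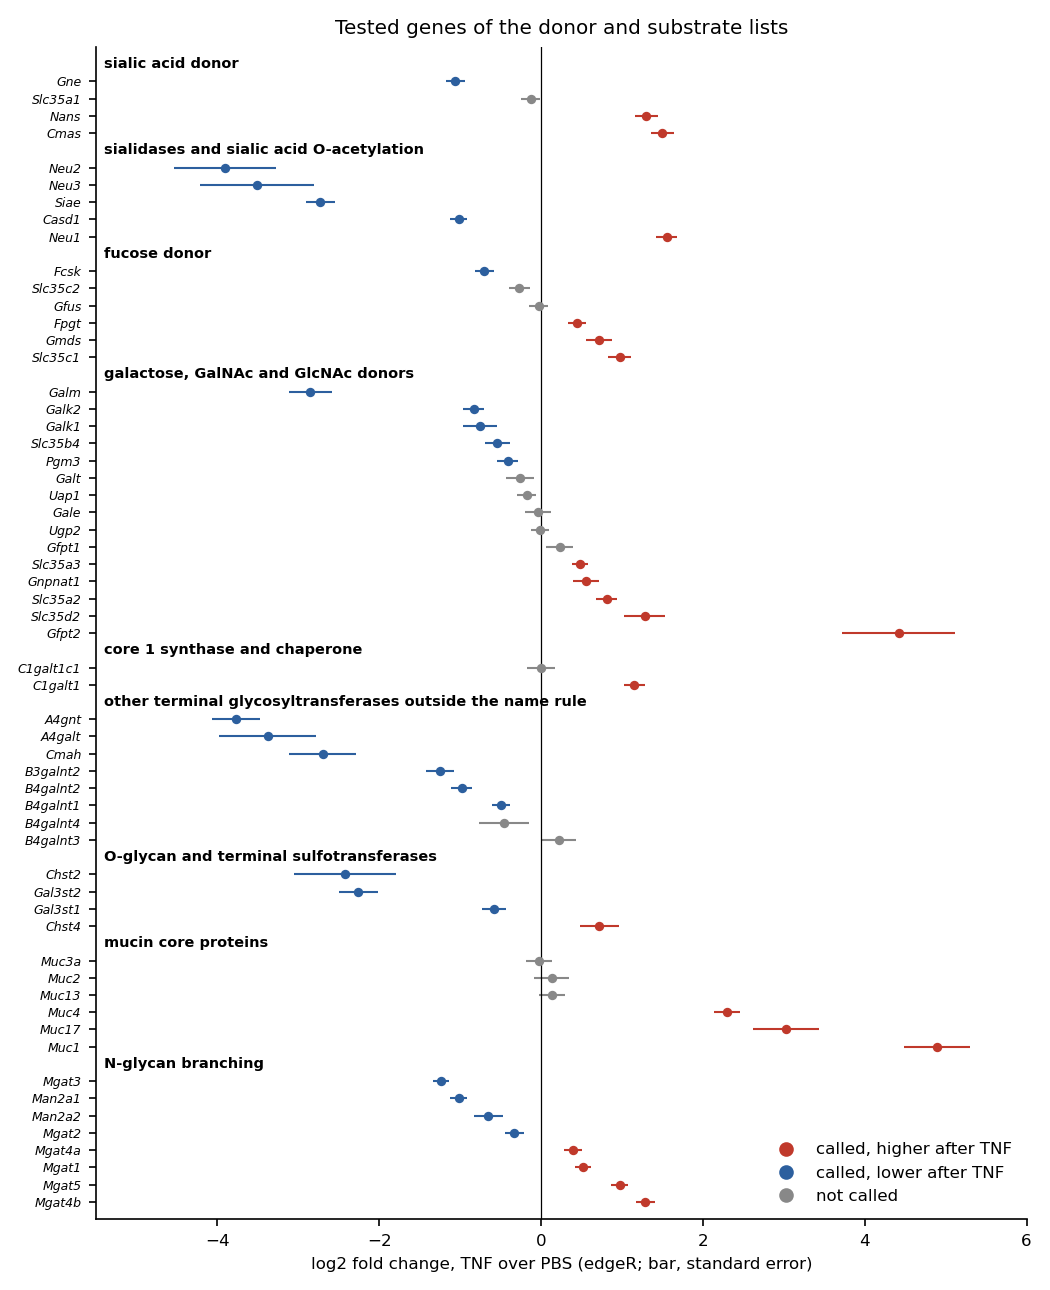
Log2 fold change (TNF over PBS, horizontal axis) with its standard error for the 58 tested genes of the 9 donor and substrate lists (bold headings); red genes were called higher, blue lower and grey not called. Muc1 at 4.89 and Gfpt2 at 4.42 lie farthest right, Neu2 at -3.90 and A4gnt at -3.77 farthest left, and the list of other terminal glycosyltransferases, which also holds Cmah, has no red gene.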

How the data were processed

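RNA of purified PCs from 7 mice was sequenced with single-end reads. The deposited table holds raw counts, whole numbers of reads per gene and library that the authors did not normalize. The submitters' processing notes name FastQC, Trimmomatic 0.39, STAR 2.7.10a and DESeq2 and the builds mm10 and mm39, without roles. The sources used here give neither the annotation used for counting nor whether strand was used, so counts of overlapping genes are uncertain. Of 55414 identifiers, 54749 (98.8%) matched GENCODE release M39 (GRCm39), which gave symbols, biotypes, coordinates and summed exon lengths. The 14329 genes passing filterByExpr were tested with edgeR 4.0.16 (quasi-likelihood F-test; R 4.3.3, limma 3.58.1; robust, two-sided, TMM scaling, 3 PBS against 4 TNF libraries), with Benjamini-Hochberg adjustment over all of them and a threshold of 0.05. Fold changes are on the log2 scale with their standard errors. Each library came from a different mouse, and no pair of libraries of a group agreed within sampling noise (chi-square per degree of freedom at least 16.7). Alternatives were other scalings and filters, DESeq2 1.42.0, a replicate block and each library left out.

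The genes and lists were chosen with earlier results of these data known. Values in every library are given for the 20 genes of mean 1 CPM or more called with a log2 change of at least 1 and for the gene of each family with the highest level per kilobase, 25 in all. In the lists these are the called genes with the 2 largest rises and 2 largest falls, the C1galt1 pair and the tested sialic acid and fucose donor genes. Other values are given in part. Genes at 0 counts were given a limit of 3 counts.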

Additional observations from a re-analysis of the deposited data

Results flagged for a closer look

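Galnt7 in TNF replicate 1 stood apart from its group, at 143 CPM beside 189, 191 and 198 CPM in the other TNF libraries. Its gap to the nearest library took up a share of 0.832 of the group's range, past the limit of Dixon's test for 4 samples. It was 1 of 46 genes looked at in the TNF libraries, and chance alone sets apart about 1 group in 20. The fold change of Galnt7 kept its call without that library.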

How the results depend on the processing

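Over 14 alternatives 29 to 37 of the glycosyltransferase genes were called, beside 33, and 39 to 46 of the donor and substrate genes, beside 44. Of the 33, 28 kept their call and direction in every alternative that tested them (B3galt2 was not tested at 1 CPM in 3 libraries), 5 (B4galt6, Fut4, St3gal3, St3gal6 and the second St6galnac2 identifier) lost the call in at least 1, and 0 changed direction. Leaving out 1 library gave 29 to 35 genes. The added calls without the filter were Galnt13 (13 and 0 counts after PBS and TNF), Galnt18 (0 and 22), St3gal5 (47 and 5) and B4galt5. A single library decided some calls of small changes: B4galt6 was not called without PBS replicate 1, Fut4 and St3gal6 without PBS replicate 2, and St3gal3 without PBS replicate 1 or 2 or TNF replicate 2 or 4. The second St6galnac2 identifier was not called without PBS replicate 2 or 3. Conversely B4galt5 (-0.64) and B3galt4 (0.40) were called without TNF replicate 1, and B3gnt9 without PBS replicate 3 (-1.14) or TNF replicate 3 (-1.11). Scaling by total counts moved the median of all genes to -0.16, with 15 genes higher and 17 lower.

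Replicate numbers do not pair these samples by the labels, and the deviations of same-numbered libraries correlated at -0.299 to -0.0314. With the replicate as a block, on 6 libraries, 29 genes were called (14 higher, 15 lower) and 42 donor and substrate genes. B4galt6, Fut4, St3gal3 and the second St6galnac2 identifier lost the call in the block fit.

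Only genes that were not called changed sign. Under scaling by total counts, Galnt1 was at -0.09, B3gnt6 at -0.02 and St3gal1 at -0.01. In the replicate block fit B3galt6 was at 0.06. With 1 library left out, Galnt1 ran from -0.01 to 0.17, Gcnt1 from -0.59 to 0.19, B3gnt6 from -0.08 to 0.37, B3galt6 from -0.17 to 0.12 and St3gal1 from -0.01 to 0.40. The cause was not tested. Genes under about 1 CPM rest on few counts, and their fold changes are limited by depth.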
